A study of Mus musculus with 96 samples.

Results

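The erythroid transcription factors around Gata1 were described cell by cell in single-cell RNA-seq of mouse bone marrow. The set was defined by symbol and holds 10 genes of 24321 listed: Gata1, Gata2, Klf1, Tal1, Gfi1b, Ldb1, Lmo2, Zfpm1, Nfe2 and Bcl11a. Each was followed along the level of Hba-a1, an alpha-globin gene whose message accumulates as red cell precursors mature. All 96 cells carry the same label, Rpl11 heterozygous erythroid precursors. They come from C57BL/6 mice of genotype Rpl11 +/lox, with 1 copy of this large-subunit ribosomal protein gene carrying lox sites. The labels name neither a Cre driver nor wild-type controls nor individual animals, so the cells are 1 sample and nothing here could be tested across samples. The series text places the cells between the burst-forming unit-erythroid, an early red cell progenitor, and the basophilic erythroblast, a nucleated precursor that has begun to make haemoglobin. Values are RPKM, which scale reads by transcript length in kilobases and by each 1000000 mapped reads, and a gene counted as detected in a cell at 1 RPKM or more.

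GATA1 is the zinc finger factor that switches on most red cell genes, and it takes over sites held by its relative GATA2 as progenitors commit. It binds DNA in a complex with TAL1, LMO2 and LDB1, works with its cofactor FOG1 (encoded by Zfpm1), and shares many target genes with KLF1, which binds CACCC boxes. GFI1B is a repressor, NFE2 binds globin control regions, and BCL11A silences embryonic globin genes in mice.

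The classes of cells were set by genes detected, marker genes and Hba-a1. Of the 96 cells, 27 had fewer than 1000 genes detected and were not compared, and 13 carried the markers of mast cells or basophils, neutrophils, monocytes or T or NK cells and were set aside. The 56 kept cells comprised 4 globin-poor cells under 10000 RPKM of Hba-a1 and 52 globin-bearing cells, which were ranked by Hba-a1 and cut into 3 near-equal bands, a low band of 18 cells, a middle band of 17 and a high band of 17. Median Hba-a1 was 196179, 420469 and 486738 RPKM from the low to the high band. Genes detected ran the other way, with medians of 3134.5, 1734 and 1235 per cell, while median depth was estimated at 6712.5, 7527 and 7919 times 1000 reads. The alpha- and beta-globin messages took medians of 21.4%, 47.1% and 57.1% of those reads. Cells with Rpl11 itself numbered 18 of 18, 12 of 17 and 5 of 17. In each band 14 of the 15 erythroblast markers were found in 50% of cells or more, and the mast cell or basophil list and the B cell list were at 0 in every cell of the bands. Of each of the other 6 non-erythroid lists no cell of the bands had more than 1 marker at 10 RPKM or more. The highest sum in a cell was 200.1 RPKM for megakaryocyte, 132 RPKM for neutrophil and 128 RPKM for monocyte or macrophage markers, and Lepr of the stroma list was found in 50% of low-band cells or more. A cell that lists a gene at 0 may lack the message or have lost it before amplification, and the 2 cannot be told apart here.

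The start-site sequences of the 3 genes on which the comparisons turn are shown first: Gata1 and Zfpm1, which were lower in the high band than in the middle band, and Klf1, which was detected in every globin-bearing cell. The windows are from RefSeq on build GRCm38.p6, 250 bases before to 50 after the gene start, whereas the expression values were made on mm9. Capitals mark 2 kinds of short word on either strand, the GATA words AGATAA or AGATAG, also with T in place of the first A, and the word CACCC, with no overlap between them in the windows shown. The Gata1 window lies at chrX:7967861-7968160 on the minus strand, the Klf1 window at chr8:84901732-84902031 on the plus strand and the Zfpm1 window at chr8:122281891-122282190 on the plus strand.
Gata1: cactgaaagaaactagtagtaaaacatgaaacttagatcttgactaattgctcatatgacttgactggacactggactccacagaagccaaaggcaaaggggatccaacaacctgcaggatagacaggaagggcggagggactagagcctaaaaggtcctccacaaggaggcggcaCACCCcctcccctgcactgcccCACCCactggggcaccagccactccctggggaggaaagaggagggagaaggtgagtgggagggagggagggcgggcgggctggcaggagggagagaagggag
Klf1: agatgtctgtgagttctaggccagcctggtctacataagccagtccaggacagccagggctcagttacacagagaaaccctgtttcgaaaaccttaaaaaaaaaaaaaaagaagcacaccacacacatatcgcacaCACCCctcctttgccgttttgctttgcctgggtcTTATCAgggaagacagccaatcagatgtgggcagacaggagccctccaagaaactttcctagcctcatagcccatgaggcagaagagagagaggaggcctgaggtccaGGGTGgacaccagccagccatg
Zfpm1: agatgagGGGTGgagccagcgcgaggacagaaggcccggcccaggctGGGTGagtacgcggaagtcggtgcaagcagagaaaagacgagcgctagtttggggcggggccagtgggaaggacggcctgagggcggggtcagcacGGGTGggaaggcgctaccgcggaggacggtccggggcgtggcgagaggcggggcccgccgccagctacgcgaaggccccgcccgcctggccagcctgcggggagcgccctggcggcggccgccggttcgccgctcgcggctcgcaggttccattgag
The Klf1 window holds a GATA word 80 bases before the start (printed as TTATCA, its reverse complement) and CACCC 114 bases before and 28 bases after it. The Gata1 window holds no GATA word and 2 copies of CACCC, at 74 and 52 bases before the start. The Zfpm1 window holds no GATA word and 3 copies of CACCC, all in reverse complement. Windows were at hand for 8 of the 10 genes, without Lmo2 and Nfe2. A GATA word was found for 4 of these 8 (Klf1, Gfi1b, Ldb1 and Tal1) and CACCC for all 8. Of all 32851 windows of 300 bases, 29.8% hold a GATA word and 57.5% hold CACCC, and of the 27025 genes 33.0% and 59.8% have them in at least 1 window. Ldb1 and Tal1 have several windows each, and the GATA words stand in only 1 window of each. A word in a window is a description of its letters and not a bound site.

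Gata1 was present in every cell of the low band and was not detected in 9 of 17 cells of the high band. Cells with Gata1 numbered 18 of 18 in the low band, 16 of 17 in the middle band and 8 of 17 in the high band (47.1%, exact 95% interval 23.0% to 72.2%). With a minimum of 2000 genes per cell the bands were cut anew, and the new high band of 7 cells had a share of 85.7%. That new band includes cells of the low and middle bands described here. With the cells ranked by erythroblast markers, the high band cut anew had 82.4%. Among those cells of the present high band with at least 1500 genes the share was 20.0%. The level of Gata1 ran from 71.4 RPKM through a median of 148 to 402 RPKM in the low band. In the middle band it ran from 0 through 90.7 to 262 RPKM, and in the high band from 0 through 0.55 to 155 RPKM. The high band overlapped the low band in only 2 cells, at 113 and 155 RPKM, and the other 15 lay below every cell of the low band.

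The 17 cells of the high band did not share 1 Gata1 level. At 10 RPKM or more there were 4 cells, with 48.5, 67.2, 113 and 155 RPKM, which correspond to 466, 1013, 1335 and 2390 estimated reads. The other 4 detected cells held traces of 2.17, 2.28, 3.28 and 6.69 RPKM, or 21 to 92 reads. Below the detection limit, 2 cells had 0.08 and 0.55 RPKM, and 7 cells were listed at 0. At the depth of those 7 cells 3 reads would have given 0.14 to 0.48 RPKM. Within the high band the cells with Gata1 had a median of 517344 RPKM of Hba-a1 and those without it 479623 RPKM, with overlapping ranges of 465249 to 570277 and 460221 to 545859 RPKM.

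**Figure D1:**
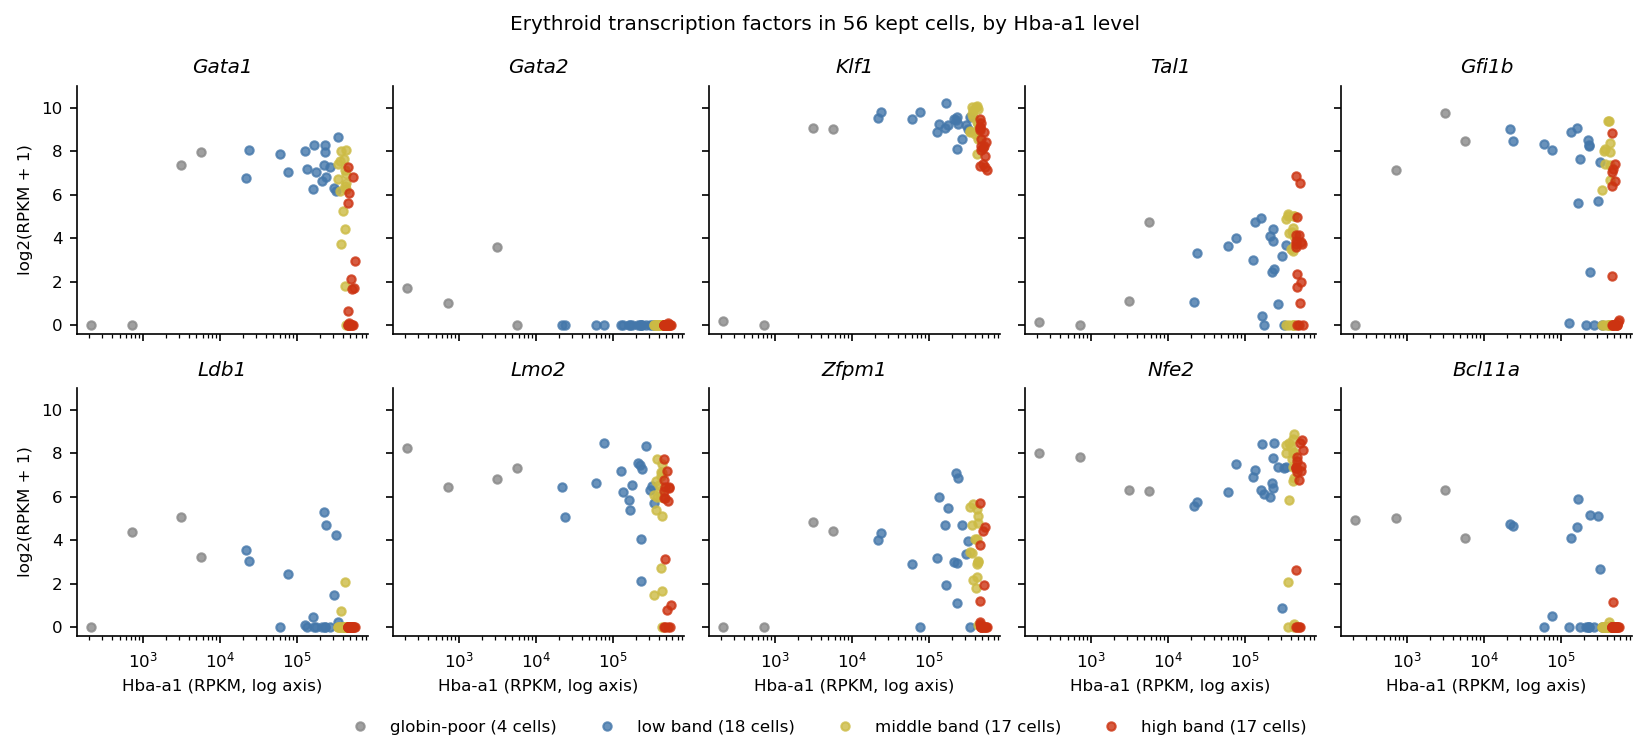
Level of each factor in the 56 kept cells, as log2(RPKM + 1), against the Hba-a1 level in RPKM on a log axis, with 1 point per cell coloured by class. Gata1 is high in all 18 cells of the low band and spreads from 0 to 155 RPKM in the high band, while Klf1 is present in all 52 globin-bearing cells.

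On the log2(RPKM + 1) scale, Gata1 averaged 2.06 ± 2.69 in the high band and 7.33 ± 0.76 in the low band (SD over 17 and 18 cells), a difference of -5.27. A difference was called where its size was at least 1 with the same direction in every run code that had at least 3 cells in both bands. For Gata1 it was -3.75 within run code SCP-1706013 and -5.96 within SCP-1706080, while SCP-170608 had only 2 cells in the high band and did not enter. Most genes tested were lower in the high band: 70.8% of the 4329 were called lower, and their median difference was -1.92. The tested genes are those detected in at least 10 kept cells, a filter that the 18 cells of the low band can meet alone. Without that filter 30.6% of 11345 genes were called lower, and the median was -0.43. Shares and medians of all genes given here are over the genes tested. Among these, 4.16% had a difference as low as that of Gata1 or lower. With the globin genes removed and each cell rescaled to a total of 1000000, the median over all genes was -1.77 and that of Gata1 was -4.96, which is -3.19 relative to that median against -3.35 for the deposited values. Ranking the cells by erythroblast markers instead of Hba-a1 turned the Gata1 difference to 0.73, or 0.97 relative to the median. Relative to the median it was -0.32 with a minimum of 2000 genes per cell and -1.14 without SCP-1706080. With fixed limits of Hba-a1, which left 4 cells in the low band, it was -1.41. The other alternatives gave -4.84 to -2.38.

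Between the high and the middle band Gata1 differed by more than nearly all other genes with the bands as cut here, a place it did not hold under every alternative. Its mean was 2.06 ± 2.69 in the high band and 5.88 ± 2.23 in the middle band, a difference of -3.82, with -3.22 within SCP-1706013 and -5.36 within SCP-1706080. Only 17.4% of genes were called lower in this comparison, the median difference was -0.44, and 0.16% of the genes tested had a difference as low as that of Gata1. With the bands cut anew, the difference was -1.95 without the cells of SCP-1706080 and -1.94 without the cells of fewer than 2000 genes. It was -2.45 with the cells ranked by Hbb-b1, a beta-globin gene, -2.15 with a pseudocount of 10, and -0.97, no longer called, with the cells ranked by erythroblast markers. The percentage of genes as low as Gata1 was 14.1% without SCP-1706080, 20.7% with the minimum of 2000 genes, 23.9% under the erythroblast ranking, 4.83% with fixed limits of Hba-a1 and 3.47% under the Hbb-b1 ranking. Of the 596 genes detected in all 18 cells of the low band, the median gene was detected in 11 of 17 cells of the high band, and 23.5% were detected in 8 or fewer, as Gata1 was.

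Gata2, the GATA factor of stem and progenitor cells, was essentially missing from the globin-bearing cells. No cell of 52 had it, and 0 of 52 allows a share of up to 5.77% by the limit of 3 cells used here for a count of 0 (the exact interval reaches 6.85%), and its only trace there was 0.06 RPKM, or 1 read, in a cell of the high band. At the depth of these cells 3 reads would have given between 0.07 and 0.55 RPKM. Gata2 was too rare to pass the filter of 10 detected cells, so that 9 of the 10 factors entered the comparisons across genes. Among the 56 kept cells, 1 carried both factors (1.79%, 0.05% to 9.55%), a globin-poor cell with 161 RPKM of Gata1, 11.1 RPKM of Gata2 and 3163 RPKM of Hba-a1. Another globin-poor cell had Gata2 at 2.32 RPKM and Gata1 at 0, and 1 more had Gata2 at 0.997 RPKM, just under the limit, and also no Gata1.

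The 4 globin-poor cells fell into opposite pairs. Cells 64 and 31 listed Gata1 at 161 and 251 RPKM, with Klf1 at 538 and 513 RPKM and Zfpm1 at 27.6 and 20.4 RPKM. Cells 11 and 68 listed Gata1 and Zfpm1 at 0, and Klf1 at 0.12 and 0 RPKM. All 4 had Lmo2 at 85.4 RPKM or more, Nfe2 at 76.8 RPKM or more and Bcl11a at 16.3 RPKM or more. The summed late erythroid progenitor markers ran from 39.2 through 5128 to 14769 RPKM over the 4 cells. Those of the erythroblast list ran from 0.08 through 597 to 1203 RPKM. A share of 50% of this class can be met by either pair alone. In this class 9 of 10 late erythroid progenitor markers and 8 of 15 erythroblast markers were found in 50% of cells or more. The same held for 2 of 12 neutrophil markers, Mpo and Prtn3, for Cd34 and Hoxa9 of the stem cell list, and for Mcpt8 of basophils, Lyz2 of monocytes, Nkg7 of T or NK cells and Lepr of the stroma list, and the summed neutrophil markers ran from 0 through 61.1 to 13939 RPKM. Whether these cells were all of the red cell line was not tested.

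Klf1 was the most abundant of the factors in every band and the only one detected in all 52 globin-bearing cells. Its lowest, median and highest levels were 278, 651 and 1205 RPKM in the low band, 233, 614 and 1082 RPKM in the middle band and 140, 305 and 716 RPKM in the high band. The low and middle bands lay over each other, and the high band was shifted down but still overlapped both. The mean log2 value was 8.33 ± 0.75 in the high band and 9.30 ± 0.48 in the low band, a difference of -0.98 that just missed the size of 1. It was 0.95 relative to the median of the genes tested, but -0.55 relative to the median without the filter of 10 detected cells. The difference itself was -1.97 when each cell was rescaled to a total of 1000000 and 0.25 when the globin genes were removed first. Its direction thus depends on how the globin reads are counted. It was also above 0 with a minimum of 500 genes per cell (0.44) and with the cells ranked by erythroblast markers (0.33), and reached -1.13 without SCP-170608. Of the 596 genes found in all cells of the low band, 14.9% were also found in all cells of the high band, and Klf1 was among them.

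The partners that hold GATA1 on DNA did not behave alike. Tal1, the basic helix-loop-helix member, appeared in 14 of 18, 12 of 17 and 14 of 17 cells from the low to the high band. Its median level was 8.58, 16.0 and 12.4 RPKM, and its difference between the high and low bands was 0.29, turning to -0.35 when each cell was rescaled to a total of 1000000. It was 1.24 with the globin genes removed before rescaling, 1.80 among cells with at least 1500 genes and -0.95 with a minimum of 2000 genes, so its sign depends on these choices. Of all genes tested, 96.4% had a difference as low as that of Tal1 or lower.

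Lmo2, the bridging LIM-only protein, appeared in 18 of 18 low, 16 of 17 middle and 12 of 17 high cells. Its median was 87.7 RPKM in the low band, 66.5 in the middle band and 60.1 in the high band. Its mean log2 value was 4.11 ± 3.05 in the high band and 6.28 ± 1.52 in the low band, a difference of -2.18 that was called lower. Of all genes tested, 43.8% had a difference as low or lower, so Lmo2 lay near the middle of them. The call was lost without SCP-1706080 (-0.64) and with a minimum of 500 or 2000 genes per cell (-0.67 and -0.69), and the ranking by erythroblast markers turned the difference to 0.44. In the high band 5 cells were below 1 RPKM and 10 were at 10 RPKM or more.

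Ldb1, which dimerises and joins distant sites, was the rarest of the complex. The gene was found in 7 of 18 cells of the low band, 1 of 17 of the middle band and 0 of 17 of the high band, where a count of 0 allows up to 17.6% (19.5% by the exact interval of the plot of detection shares). In the 8 globin-bearing cells with the gene, its level ran from 1.83 through 8.98 to 38.4 RPKM. The difference of -1.42 between the high and low bands was -2.59 within SCP-1706013 and -0.29 within SCP-1706080, and it was -0.77 without SCP-1706013. Of all genes tested, 63.0% had a difference as low as -1.42 or lower. All 4 complex genes, Gata1, Tal1, Lmo2 and Ldb1, were detected together in 6 of 18, 1 of 17 and 0 of 17 cells, and the first 3 together in 14 of 18, 10 of 17 and 4 of 17. The 0 of 17 had to follow from Ldb1, which no cell of the high band had. Whether these joint counts differ from what the shares of the single genes would give was not tested.

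Zfpm1, which encodes the cofactor FOG1, held until the middle band and was then lower. The share of cells with it was 16 of 18 in the low band, 16 of 17 in the middle band and 6 of 17 in the high band (35.3%, 14.2% to 61.7%). The median level was 12.1, 9.85 and 0.04 RPKM in that order. The mean log2 value was 1.30 ± 2.00 in the high band and 3.62 ± 1.52 in the middle band, a difference of -2.32, and 3.28% of the genes tested had one as low. The difference was -0.96 with the cells ranked by erythroblast markers and -0.81 with a pseudocount of 10, and was then not called. Zfpm1 and Gata1 were the 2 of 9 factors called lower in this step, beside 17.4% of all genes, and 0 were called higher, beside 0.878%. The median of all genes was -0.44 and that of the 9 factors -0.96. Between the high and low bands the Zfpm1 difference was -2.34, called lower, and 40.2% of the genes tested had one as low. That difference fell under the size of 1 with a pseudocount of 10 (-0.94), a minimum of 2000 genes (-0.60) and fixed limits of Hba-a1 (-0.71). The same held under the erythroblast ranking (-0.88) and without SCP-1706080 (-0.90).

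Gfi1b, the repressor that recruits the LSD1 and CoREST proteins, was all or none in many cells. From the low to the high band 14 of 18, 10 of 17 and 7 of 17 cells had it, and where present its median was 306, 254 and 131 RPKM. The mean log2 value was 2.71 ± 3.53 in the high band and 5.88 ± 3.59 in the low band, a difference of -3.17, which was -0.96 with the cells ranked by erythroblast markers. Of all genes tested, 24.9% had a difference as low as -3.17 or lower. In the step to the high band alone the difference was -1.93, with opposite signs in the run codes, 0.18 within SCP-1706013 and -2.94 within SCP-1706080, so it was not called.

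Nfe2, the haematopoietic subunit of the NF-E2 dimer, appeared in 17 of 18, 14 of 17 and 13 of 17 cells from the low to the high band, with medians of 110, 211 and 158 RPKM. The difference of mean log2 values between the high and low bands was -1.05, against the order of the medians, with 4 cells of the high band listed at 0 and 0 cells of the low band. Of all genes tested, 73.2% had a difference as low or lower. The Nfe2 difference was -0.18, and no longer called, with the globin genes removed and each cell rescaled. Also under the size of 1 were the values with a pseudocount of 10 (-0.40) and with fixed limits of Hba-a1 (-0.39). So were those under the Hbb-b1 ranking (-0.79) and without SCP-1706013 (-0.94). The sign turned with a minimum of 500 genes per cell (0.28), with a minimum of 2000 (0.11) and with the cells ranked by erythroblast markers (2.05). Bcl11a was nearly restricted to the low band among the globin-bearing cells, with 8 of 18, 0 of 17 and 1 of 17 cells. Its highest levels were 58.9, 0.18 and 1.23 RPKM, and the difference between the middle and low bands was -2.07, below -1 in every run code. Ldb1 and Bcl11a passed the filter of 10 detected kept cells mainly through the globin-poor cells and the low band, so that they had to be lower in the high band.

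**Figure D2:**
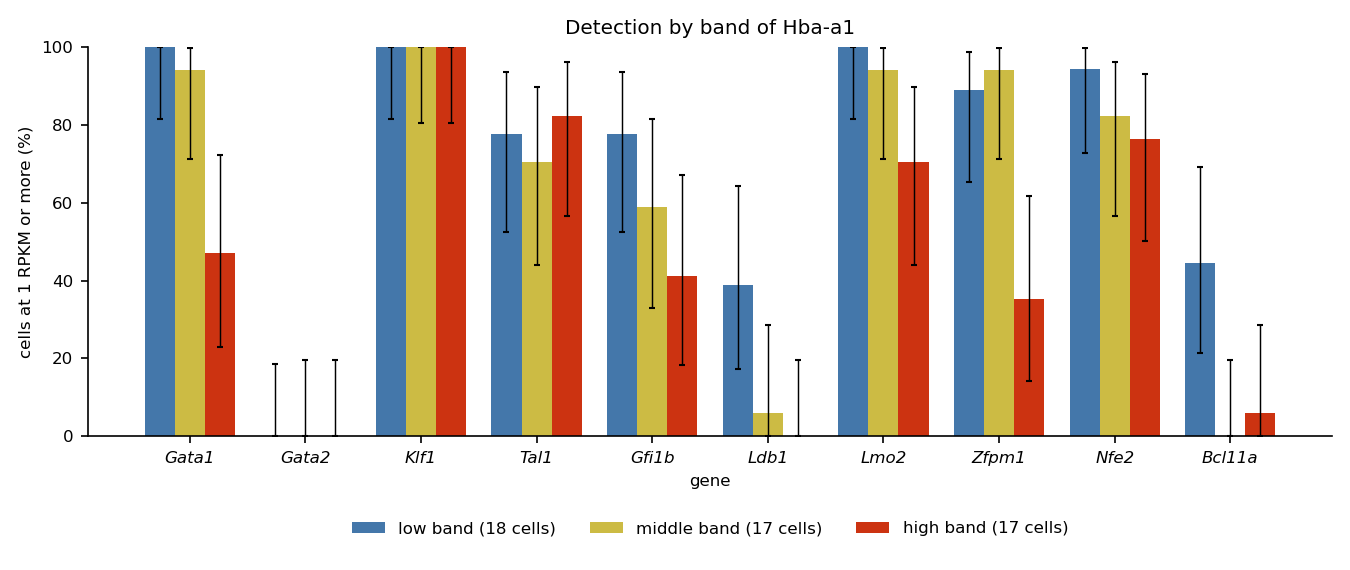
Share of cells with each factor at 1 RPKM or more, in percent, by band of Hba-a1, with exact 95% Clopper-Pearson intervals that cover counting error only. Gata1 and Zfpm1 stand at 94.1% in the middle band and at 47.1% and 35.3% in the high band, and Klf1 is at 100% throughout.

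As a set, 7 of the 9 tested factors were called lower in the high than in the low band, beside 70.8% of all genes, and 0 were called higher, beside 0.785%. That count includes Ldb1 and Bcl11a, whose direction the filter fixed, and without them it is 5 of 7. Without the cells of SCP-1706080 3 of the 9 factors were called lower, beside 74.9% of all genes, and with a minimum of 2000 genes per cell 3, beside 68.9%. With a pseudocount of 10 it was 3, beside 42.3%, and with the cells ranked by erythroblast markers 1, beside 11.7%. Between the middle and the low band 2 of 9 were called lower, Gata1 and Bcl11a, of which Bcl11a passed the filter through the low band and the globin-poor cells, beside 56.9% of all genes, and 0 were called higher, beside 1.25%. The number of the 10 factors detected in a cell had a median of 7 in the low band, 6 in the middle band and 4 in the high band. Beside this, the median number of all genes detected was 3134.5, 1734 and 1235, a steeper fall in proportion.

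**Figure D3:**
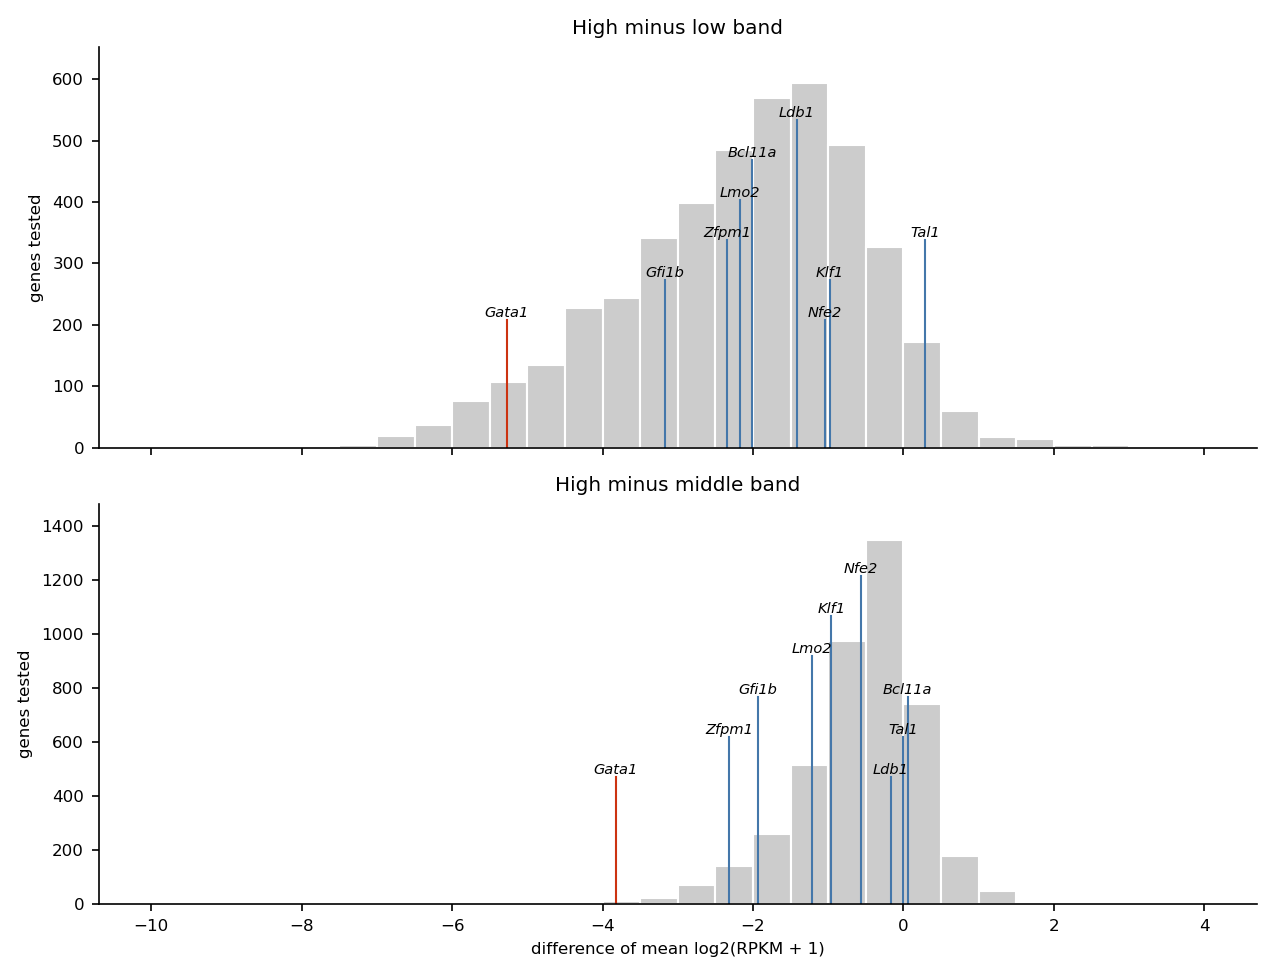
Differences of mean log2(RPKM + 1) for all 4329 genes tested (grey bars, number of genes in steps of 0.5) and for the 9 tested factors (lines), with the high minus the low band above and the high minus the middle band below. Gata1 is at -5.27 above and at -3.82 below, where it lies beyond nearly all genes with the bands as cut here, though not under every alternative.

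By median RPKM, which is per length, the order in the low band was Klf1, Gfi1b, Gata1, Nfe2, Lmo2, Zfpm1, Tal1, Bcl11a, Ldb1 and Gata2. The quartile ranges of Klf1 and Gfi1b did not overlap, nor did those of Lmo2 and Zfpm1, whereas all other neighbours overlapped. In the high band Klf1 again came first, followed by Nfe2, Lmo2 and Tal1, and Gata1 stood at place 5 with quartiles of 0 and 6.69 RPKM that overlapped those of its neighbours.

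Pooled over the bands, Zfpm1 was the partner found most unevenly between cells with and without Gata1, but 9 of the 10 cells without Gata1 lay in the high band. The 42 globin-bearing cells with Gata1 had a median of 2006 genes and the 10 without it 1371.5, whose part in co-detection was not tested, and 41.5% of all genes tested were found at least 20 percentage points more often in the cells with Gata1. Of 8 partners 2 passed that mark. Zfpm1 was detected in 35 of 42 cells with Gata1 and 3 of 10 without, 53.3 points more, and Lmo2 in 39 of 42 and 7 of 10, 22.9 points more. Without SCP-1706080, or with the globin-poor cells ranked in, 1 partner passed.

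Tal1 went the other way, in 30 of 42 cells with Gata1 and in 10 of 10 without it, a difference of -28.6 points. At least 20 points less often in cells with Gata1 held for 1.64% of all genes. The Tal1 difference was -0.38 points with each cell rescaled to a total of 1000000 and also with a minimum of 500 genes per cell, -5.95 points at a detection limit of 10 RPKM and -10.6 points with the globin-poor cells ranked in, so it did not hold under these choices. The intervals of the 2 shares, 55.4% to 84.3% and 69.2% to 100%, overlap. Gfi1b appeared in 26 of 42 and 5 of 10 cells, Nfe2 in 37 of 42 and 7 of 10, Ldb1 in 8 of 42 and 0 of 10, and Bcl11a in 8 of 42 and 1 of 10. Klf1 was in all cells of both kinds, at medians of 594 RPKM with Gata1 and 341 RPKM without it.

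Within the high band the numbers of genes per cell were close. The 8 cells with Gata1 had a median of 1159 genes, and the 9 without it 1242 genes. Their median depths were 6902 and 8023 in units of 1000 reads. Zfpm1 was detected in 4 of 8 cells with Gata1 and 2 of 9 without, and Nfe2 in 7 of 8 and 6 of 9, 27.8 and 20.8 points more often, beside 7.39% of all genes at that mark. Tal1 was in 5 of 8 and 9 of 9, a wider gap than that of Zfpm1 at -37.5 points, beside 17.7% of genes at least 20 points less often. With 8 and 9 cells the exact intervals of each of these pairs overlap. Klf1 had medians of 326 RPKM with Gata1 and 304 RPKM without it, and its mean log2 value differed by 0.04.

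**Figure D4:**
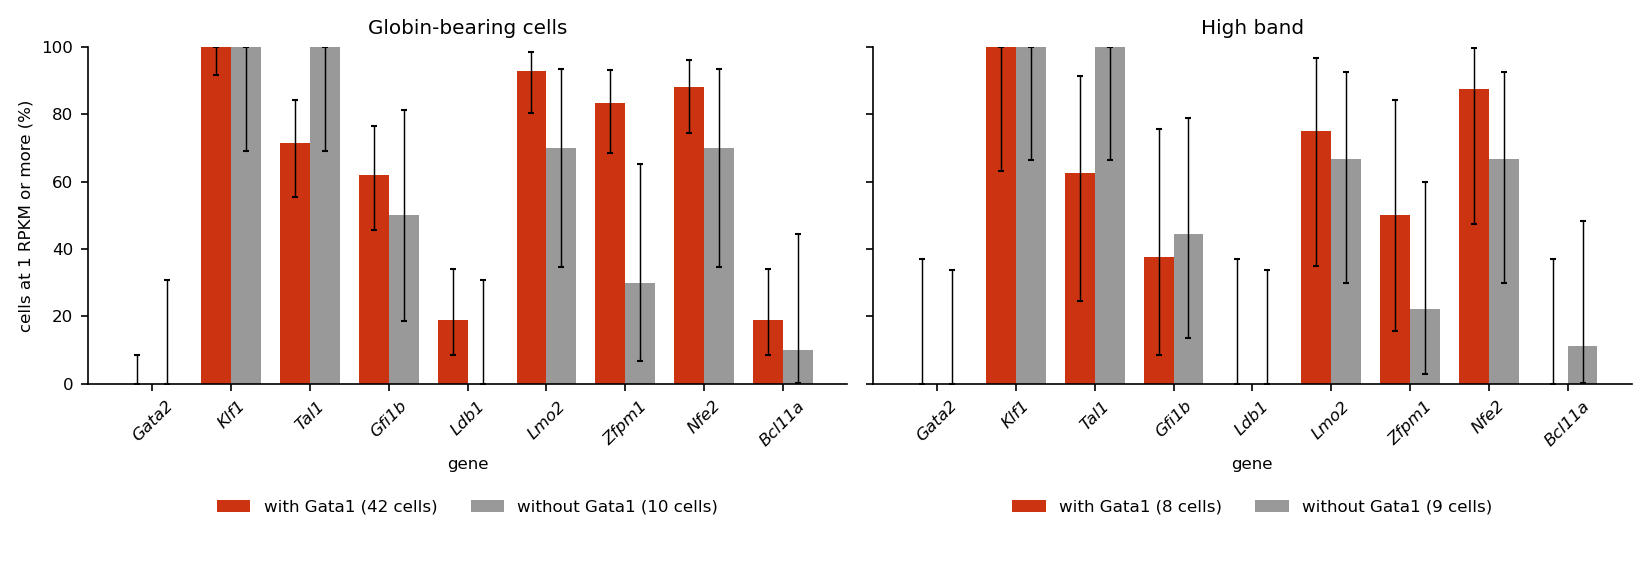
Share of cells with each other factor at 1 RPKM or more, in percent, in cells with Gata1 (red) and without it (grey), over all globin-bearing cells on the left and within the high band on the right, with exact 95% intervals. Zfpm1 shows the widest gap on the left, 83.3% against 30.0%, and Klf1 is at 100% on both sides.

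Klf1 was in all 52 globin-bearing cells, so Klf1 without Gata1 only restates where Gata1 was missing, in 0 of 18, 1 of 17 and 9 of 17 cells from the low to the high band. The reverse, Gata1 without Klf1, was seen in 0 of 56 kept cells, which allows up to 5.36% (6.38% by the exact interval). Only the 4 globin-poor cells could have shown it. Among the 8 cells with Gata1 under the gene minimum, cells 45, 62, 40 and 46 listed Klf1 at 0. Their Gata1 levels were 1918, 969, 324 and 5.75 RPKM, the last from 1 estimated read. In the 13 cells set aside for markers of other lineages Gata1 was detected in 0, which allows up to 23.1%, and Klf1, Tal1 and Zfpm1 in 1 each. Of those 13 cells, which had at most 4332 RPKM of Hba-a1, 9 listed Nfe2, 8 Lmo2, 6 Bcl11a and 5 Ldb1.

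In the deposited values, most known GATA1 target genes were at like levels in the high and low bands. Other scalings, which moved the Klf1 difference to -1.97 or 0.25, were not applied to the targets. Whether like levels would hold under them was not tested. Of 18 tested in that list, 2 were called higher in the high than in the low band, Hba-a1 and Hbb-b1, beside 0.785% of all genes. Hba-a1 set the bands, and Hbb-b1 followed it with a Spearman's coefficient of 0.92 over the globin-bearing cells, so neither call is a result. None of the other targets was called higher, and 4 were called lower, beside 70.8%. The median difference, with both globin genes in it, was 0.01, against -1.92 over all genes. Alas2, the first enzyme of haem synthesis in red cells, had medians of 583 RPKM in the high band and 362 RPKM in the low band. Lower were Uros, an enzyme of haem synthesis (-2.83), Bnip3l, which removes mitochondria (-2.01), Tfrc, the transferrin receptor (-1.77), and Fech, which inserts iron into haem (-1.45). The choice of Alas2, Tfrc and Fech for this description was made with their values in view.

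The same targets were set side by side within the high band, in the 8 cells with Gata1 and the 9 without it. Of the 18, 1 was higher by at least 1 on the log2 scale in cells with Gata1, Kel (1.20), beside 7.42% of all genes. Another 4 were lower, Trim10 (-3.43), Uros (-2.31), Alas2 (-1.49) and Tfrc (-1.17), beside 14.1% of all genes. Alas2 had medians of 279 RPKM in cells with Gata1 and 649 RPKM in cells without it, with overlapping ranges of 6.29 to 1529 and 116 to 1967 RPKM. The median over the targets was -0.43 and over all genes -0.06. Kel, Trim10, Alas2 and Tfrc were likewise picked with their values in view.

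The median differences of the other lists lay between that of all genes, -1.92, and 0, and their counts stand beside 70.8% of all genes called lower. Of the corepressors that FOG1 and GFI1B recruit, 11 of 12 tested were called lower, with a median of -1.86, near that of all genes. They were led by the histone-binding protein gene Rbbp7 (-5.82), the methyl-DNA reader Mbd2 (-4.45) and the deacetylase Hdac1 (-3.63). Among the 11, Kdm1a, Rcor1, Chd4 and Mbd3 passed the filter mainly through the low band and the globin-poor cells, so the filter largely fixed their direction. Of 5 LDB1 complex partners 1 was called lower, Ssbp2 (-1.12), while Tcf3, the E protein that pairs with TAL1, was at -0.94 and Ssbp3 at -0.54, and the list's median was -0.72. Of 7 other erythroid factors 4 were called lower, among them the cell cycle factor E2f4 (-2.94), Klf13 (-2.03) and Zbtb7a (-1.59), with a median of -1.24. Nr3c1, also called lower, passed the filter mainly through the low band and the globin-poor cells. In each of 2 lists only 1 gene passed the filter: Nfe2l2 (-1.26, called lower) among the NF-E2 partners and rivals, and Ikzf1 (-0.53, not called) among the progenitor and myeloid factors. Spi1, the myeloid factor that opposes GATA1, appeared in 0 of 18, 0 of 17 and 1 of 17 cells from the low to the high band.

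Along the whole range of Hba-a1, Spearman's coefficient over the 52 globin-bearing cells was -0.68 for Gata1, -0.56 for Klf1, -0.52 for Ldb1, -0.43 for Bcl11a, -0.42 for Zfpm1 and Gfi1b, -0.31 for Lmo2, 0.10 for Nfe2 and 0.01 for Tal1. All points share the trend in genes detected, with which Gata1 had a coefficient of 0.64. The genes most like Gata1 among 3075 were Atp5b (0.73), Cdc6 (0.72), Rpl14-ps1 (0.71), Txn2 (0.70), Rpl14 (0.70), Anapc13 (0.68), Cfl1 (0.68), Ndufa4 (0.67), Srsf3 (0.67) and Mrpl18 (0.67). Rpl14 and its pseudogene copy share sequence and may share reads. The least like were the globin genes Hba-a1 and Hba-a2 (-0.68), Hbb-b1 and Hbb-bs (-0.64) and Hbb-bt (-0.63), near-identical copies within each pair.

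The 6 other factors found in at least 25% of globin-bearing cells ranked lower. Klf1 came nearest, at place 924 of 3074 with 0.43, then Gfi1b at 1488 with 0.34, Zfpm1 at 1757 with 0.29, Lmo2 at 2257 with 0.18, Nfe2 at 2648 with 0.06 and Tal1 at 2719 with 0.04. The genes most like Klf1 were Zbed5 (0.65), Chchd2 (0.64) and Zfp207 (0.60), and those most like Gfi1b were Ccne2 (0.64), Exosc5 (0.63) and Ints8 (0.60). For Zfpm1 they were Dek (0.53), Gm10094 (0.52) and Alyref (0.51), and for Lmo2 Cox5b (0.52), Ap1b1 (0.49) and Ftl1 (0.48). For Nfe2 they were 0610039K10Rik (0.45), Tspo2 (0.42) and Stradb (0.40), and for Tal1 Casp2 (0.42), Depdc1a (0.41) and Gm5088 (0.41). Among the factors themselves the highest coefficients were 0.49 between Ldb1 and Bcl11a and 0.43 for Lmo2 with Zfpm1 and for Gata1 with Klf1.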

How the data were processed

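Fluidigm C1 capture, SMART-Seq amplification of cDNA and Nextera XT libraries are given per the labels' protocols. The submitters' processing notes name TopHat2 (2.0.9) and build mm9, and how reads were counted is not given in the sources used here.

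In all, the authors deposited RPKM for 34899 RefSeq transcripts, and a gene took the value of its highest transcript in each cell. The 10 genes and the gene lists were chosen with earlier results of these data known.

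Values were used as log2(RPKM + 1), a scale that understates differences of low genes. Cells were kept at 1000 genes or more at 1 RPKM, and set aside where at least 3 markers and 50% of a non-erythroid list reached 10 RPKM, over 8 such lists. Only genes detected in 10 kept cells were compared. With 1 sample there are no p-values; calls are by size, and SDs describe the spread of cells. Clopper-Pearson intervals (95%, exact) and limits from 3 reads or cells reflect counting error alone, because PCR copies here carry no molecular identifiers. No 2 cells had identical values, and no doublet caller was run.

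Depth was estimated from the steps between low RPKM values, using transcript lengths found for 97.6% of transcripts. In the median kept cell 59.7% of low values were whole within 0.06, where 12% would be by chance. Each unit could be a single read or a read pair, a factor of 2. Median depth of the globin-bearing cells was 7034 in units of 1000 reads (1531 to 11661), and 1 RPKM of Gata1 was then 13.4 reads.

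Named genes are the 10 factors, the 3 of each list with the largest difference among genes in at least 25% of globin-bearing cells, the 10 most and 5 least like Gata1 by Spearman's coefficient, and the 3 most like each other factor at that share. Exceptions are those marked in the text, Spi1, Rpl11, marker genes, and the list genes named for how they passed the filter. Added after values had been seen were the comparison of target genes between cells with and without Gata1 in the high band, the 596-gene detection background, the percentages of genes as low as a factor, the choice of cells described in the closing section, and the alternatives for the high against the middle band. Run codes are the 3 of the sample descriptions, whereas all 96 titles give 1 code, SCP-1706080, so whether the codes mark separate runs is not settled. Alternatives changed the pseudocount, scaling, detection limit, gene minimum, transcript choice, ranking of cells, classes and run codes. Scripts were tested on simulated data and ran in Python 3.11.15 with numpy 2.4.6, pandas 2.3.3, scipy 1.17.1 and matplotlib 3.10.9.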

Additional observations from a re-analysis of the deposited data

Results flagged for a closer look

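Some cells outside the comparisons listed a factor above its highest level in the 56 kept cells, which drew attention to them. Cell 45, with 829 genes and 682 RPKM of Hba-a1, listed Gata1 at 1918 RPKM together with Gata2 at 415 RPKM and Bcl11a at 116 RPKM, where the kept cells reached 402, 11.1 and 77.7 RPKM. It is the only cell of the series with both GATA factors above 100 RPKM, and it listed Klf1 at 0. Cell 62, with 923 genes, listed Gata1 at 969 RPKM, Tal1 at 117 RPKM and Ldb1 at 59.7 RPKM. Tal1 also reached 978, 891, 226 and 277 RPKM in cells 1, 13, 24 and 35, with 696, 92, 689 and 852 genes, against at most 115 RPKM in kept cells. Zfpm1 reached 245 RPKM in cell 40 and 1241 RPKM in cell 43, with 570 and 171 genes, against at most 136 RPKM. Among the cells set aside, the basophil-like cell 54 listed Gata2 at 419 RPKM with Gata1 at 0, cell 50 listed Ldb1 at 91.4 RPKM, and cells 3 and 60 listed Bcl11a at 112 and 202 RPKM. The part of low gene numbers and of low depth in these levels was not tested.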

How the results depend on the processing

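No paired analysis was possible because all cells carry 1 group label. The values here are among those that moved, beside those given with each factor, and the cause was not tested. With a pseudocount of 10 the Gata1 difference between the high and low bands was -3.22 and 3 factors were called lower, beside 42.3% of all genes. A gene minimum of 2000, with the bands cut anew, left 7 cells in the high band, some of them from the low and middle bands. The Gata1 difference was then -2.05, 3 factors were called lower (68.9% of all genes), and Gata1 was detected in 85.7% of that band. In co-detection 4 partners passed 20 points, but this set 21 cells with Gata1 against only 1 cell without it. The median in that band was 6 factors per cell, and Nfe2 turned to 0.11. With a gene minimum of 500 Nfe2 turned to 0.28. With cells ranked by erythroblast markers Gata1 turned to 0.73, Lmo2 to 0.44 and Nfe2 to 2.05, 1 factor was called lower (11.7% of all genes) and Gata1 was detected in 82.4% of the high band. Without SCP-1706080 3 factors were called lower (74.9% of all genes), 1 partner passed and 6 factors were detected per cell, and without SCP-170608 0 cells carried both Gata1 and Gata2. With the globin-poor cells ranked in, 1 partner passed. Among cells with at least 1500 genes, an alternative chosen after seeing the data, 1 of 5 cells of the high band had Gata1 (20.0%). Scaling per read outside Hba-a1 and Hbb-b1, also added then, gave -5.05 for Gata1. Over all alternatives the difference between the high and low bands ran from -6.95 to 0.73 for Gata1, -5.06 to -0.96 for Gfi1b, -3.91 to -0.60 for Zfpm1, -3.40 to -0.80 for Bcl11a, -3.12 to 2.05 for Nfe2, -3.05 to 0.44 for Lmo2, -2.85 to -0.35 for Ldb1, -1.97 to 0.44 for Klf1 and -0.95 to 1.80 for Tal1, and the count of factors called lower from 1 to 8. Both detection limits and keeping the cells set aside could not move these differences, since neither enters the means of the bands. The number of cells, 17 to 18 per band, limits every share.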
